A study of Mus musculus with 4 samples.

Results

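The ATP-binding cassette (ABC) transporter family was described in 4 mouse leukaemia cell lines. Members were all genes of the deposited files whose symbol begins with Abca to Abcg followed by a number, which gave 50 of the 21889 genes listed. Of these 50 genes, 24 had a mean of at least 1 FPKM (fragments per kilobase of transcript, scaled to the library size) over the 4 libraries and are called expressed. The same rule kept 10066 of all listed genes, so 48% of the family and 46.0% of all genes were expressed.

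ABC proteins bind and hydrolyse ATP, and most of them use that energy to move a substrate across a membrane. Subfamilies A and G carry mainly sterols and phospholipids, B and C include the multidrug pumps, and D holds the acyl-CoA carriers of the peroxisome. Members of subfamilies E and F have no membrane domain and act on ribosomes and translation. In leukaemia the family is best known for drug efflux, and Abcc4 and Abcc5 are known to export nucleotide and nucleoside analogue monophosphates, the form that cytarabine (Ara-C) takes after its first phosphorylation.

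The lines came from myeloid leukaemias of the inbred strain BXH-2. B117P is a parental line sensitive to Ara-C, with an IC50 of about 150 ng/ml, and B117H is its highly resistant derivative, with an IC50 of about 160 µg/ml. B140P and B140H are a second such pair, at about 110 ng/ml and 60 µg/ml. The labels give exposure to rising Ara-C as the treatment of all 4 lines, and growth in ASM medium without the drug. Each line is 1 library of total RNA, each resistant line is 1 derivative of 1 parent, and whether it is clonal is not given in the sources used here. B117P and B117H are called lineage B117 below, and B140P and B140H lineage B140.

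Without a second library of any line, a difference within a lineage has no replicate check and is described by its size. A gene is said to have risen, fallen or changed when log2(FPKM + 1) differed by at least 1, which is 2-fold on that scale; the added 1 makes the change of low genes look smaller than it was. Ratios in percent or fold are plain FPKM ratios, with a 95% exact interval from estimated fragments that covers counting error only. The spacing of low values put the depth at an estimated 22160000 fragments in B117P, 19660000 in B117H, 19220000 in B140P and 24500000 in B140H. At those depths 3 fragments on the median member transcript correspond to 0.0237 to 0.0302 FPKM. In RNA from whole cultures, fewer cells of a type and less RNA per cell cannot be told apart.

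The identity of the lines was checked on marker genes. Ptprc, the pan-leukocyte antigen CD45, lay between 50.1 and 89.0 FPKM, and Spi1, the myeloid transcription factor PU.1, between 76.6 and 111 FPKM. The summed level of 9 myeloid genes was 1778 FPKM in B117P, 742.5 in B117H, 267.2 in B140P and 217.5 in B140H. Most of that difference is the myeloperoxidase gene Mpo, at 1450, 473, 10.4 and 0.913 FPKM, and the other 8 genes summed to 328, 269, 257 and 217 FPKM. The near-level sum hides differences of single genes. By the 2-fold rule, 6 of the 9 were lower in B140P than in B117P, beside 10.8% of all expressed genes. Cd33 was the 1 that was higher, beside 5.83%. In B140H against B117H, 5 were lower, beside 9.19%, and 1 higher, beside 9.69%. In both B140 lines the stem cell factor receptor gene Kit was listed at 0 and lysozyme Lyz2 was below 0.8 FPKM, while the myeloid surface antigen Cd33 was higher in the B140 lines, at 120.1 and 54.8 FPKM against 8.58 and 10.6, and the B cell receptor subunit Cd79b stood at 44.5 and 64.2 FPKM. Of 5 B cell genes 2 were expressed, and their 5-gene sum was 2.07 and 0.611 FPKM in B117P and B117H and 51.9 and 80.5 in B140P and B140H. The 5-gene sums for T cells reached at most 0.480 FPKM and those for hepatocytes at most 4.97. The stromal sum was highest in B117H at 7.70 FPKM, of which Pdgfrb made up 7.54, and the erythroid sum highest in B140H at 7.50, of which Hbb-b1 made up 7.17. Several of these markers differed between the lineages, and the part of cell identity in any member's lineage difference was not tested.

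The bases just before the start of 5 genes are shown because these genes carry the differences described below, and because 2 of them, Abcb1b and Abcb4, are neighbours on chromosome 5 that behaved differently. Each sequence is the 250 bases before the most upstream start in RefSeq (GRCm38.p6), read 5′ to 3′ on the strand of the gene. Capitals mark the GC box GGGCGG (or CCGCCC on the other strand), the site bound by Sp1-type factors, and the CCAAT box (or ATTGG), the site of the factor NF-Y. The 2 motifs share no overlapping match in the 5 windows.
Abcb1b promoter, chr5:8797897-8798146, plus strand: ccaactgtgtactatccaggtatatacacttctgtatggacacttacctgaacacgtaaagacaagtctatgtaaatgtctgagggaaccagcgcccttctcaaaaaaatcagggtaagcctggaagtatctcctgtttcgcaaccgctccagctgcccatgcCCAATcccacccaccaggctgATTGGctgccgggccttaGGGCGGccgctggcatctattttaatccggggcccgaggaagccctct
Abcb4 promoter, chr5:8893471-8893720, plus strand: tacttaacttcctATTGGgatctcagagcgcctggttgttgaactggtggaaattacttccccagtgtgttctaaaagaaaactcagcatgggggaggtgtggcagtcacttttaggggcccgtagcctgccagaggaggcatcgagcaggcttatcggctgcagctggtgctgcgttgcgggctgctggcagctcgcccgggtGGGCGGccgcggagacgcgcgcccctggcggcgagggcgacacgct
Abcc2 promoter, chr19:43782058-43782307, plus strand: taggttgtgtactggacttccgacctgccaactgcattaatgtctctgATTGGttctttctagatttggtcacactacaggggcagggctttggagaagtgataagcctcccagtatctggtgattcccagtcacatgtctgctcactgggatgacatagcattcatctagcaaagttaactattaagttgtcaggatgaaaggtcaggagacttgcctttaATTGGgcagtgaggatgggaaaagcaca
Abcc4 promoter, chr14:118706220-118706469, minus strand: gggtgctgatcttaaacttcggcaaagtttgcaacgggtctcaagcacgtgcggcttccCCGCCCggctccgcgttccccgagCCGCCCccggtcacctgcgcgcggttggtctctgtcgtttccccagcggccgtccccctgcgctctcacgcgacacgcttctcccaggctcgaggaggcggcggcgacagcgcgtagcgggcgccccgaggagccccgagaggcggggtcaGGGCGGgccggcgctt
Abca9 promoter, chr11:110168154-110168403, minus strand: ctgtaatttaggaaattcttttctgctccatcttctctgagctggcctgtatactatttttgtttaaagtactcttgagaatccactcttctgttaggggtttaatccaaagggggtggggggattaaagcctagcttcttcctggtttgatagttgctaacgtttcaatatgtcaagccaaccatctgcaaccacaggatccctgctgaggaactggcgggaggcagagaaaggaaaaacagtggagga

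The Abcc4 window was the richest in CpG, with 35 CpG dinucleotides and 3 GC boxes, whose first bases lie at -191, -167 and -16 from the start. The Abcb1b and Abcb4 windows each held 1 GC box, at -48 and -46. The Abcc2 window had 2 CCAAT boxes, no GC box and 1 CpG, and the Abca9 window held none of the motifs searched and 2 CpG. RefSeq windows were matched for 38 of the 50 members. The GC box was found in 10 of 17 expressed members (58.8%) and 6 of 21 others (28.6%), beside 61.0% of all 7184 expressed and 30.1% of all 7498 other listed genes with a window. It was found in 33.0% of the 27025 windows of the whole table. The CCAAT box was found in 35.3% of expressed members, 37.5% of all expressed genes and 34.5% of all windows, and TATAAA in 5.88%, 5.67% and 13%, with both strands searched. For the GC box the members' shares were close to those of other genes of the same expression class. Among genes that were not expressed, the CCAAT box was found in 23.8% of members and 35.2% of all, and TATAAA in 14.3% and 18% (none of these differences was tested). A match in these letters is a description of sequence and not a mapped binding site.

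Of the 50 members, the highest levels were those of Abce1, Abcf1 and Abcf2, which have no membrane domain. Abce1, which splits ribosomes after termination, stood at 73.3 FPKM in B117P, 83.2 in B117H, 86.0 in B140P and 83.3 in B140H. Abcf1, an initiation factor partner, stood at 62.1, 56.3, 76.4 and 86.6 FPKM in the same order, which is kept for every list of 4 values below. Abcf2 stood at 60.8, 62.9, 72.9 and 89.6 FPKM, and these 3 were the only members of the 50 with a mean of 50 or more. Abce and Abcf together made up 46.1, 51.5, 53.6 and 54% of the summed FPKM of the family. None of the 4 members passed the 2-fold rule in any comparison of lines, and Abcf3 was the lowest of them at 16.0, 10.1, 11.6 and 15.1 FPKM.

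The remaining expressed members spanned a wide range. By mean level, 11 members lay between 10 and 50 FPKM, 10 between 1 and 10, 5 between 0.1 and 1, and 21 under 0.1. Subfamily A had 4 of 16 genes expressed, B 6 of 10, C 5 of 10, D 4 of 4, E 1 of 1, F 3 of 3 and G 1 of 6. Just inside the threshold were Abcc10 at a mean of 1.23 FPKM and Abcc2 at 1.30, and just outside it was Abca1 at 0.720. Of the 24 expressed members, 20 reached 1 FPKM in all 4 lines, and 13 varied by less than 2-fold in FPKM between their lowest and highest line. The same counts were not made for all expressed genes, so they are not read as a trait of the family.

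Of the 26 members that were not expressed, 9 were listed at 0 in every line, which is 18% of the family against 33.5% of all genes. Abcb11, the bile salt export pump, Abcc8, the sulphonylurea receptor of the beta cell, and Abcg5 and Abcg8, which together export plant sterols, were among the 9. In all, 20 members were under 0.1 FPKM in each line, a count that was not made for all genes.

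**Figure D1:**
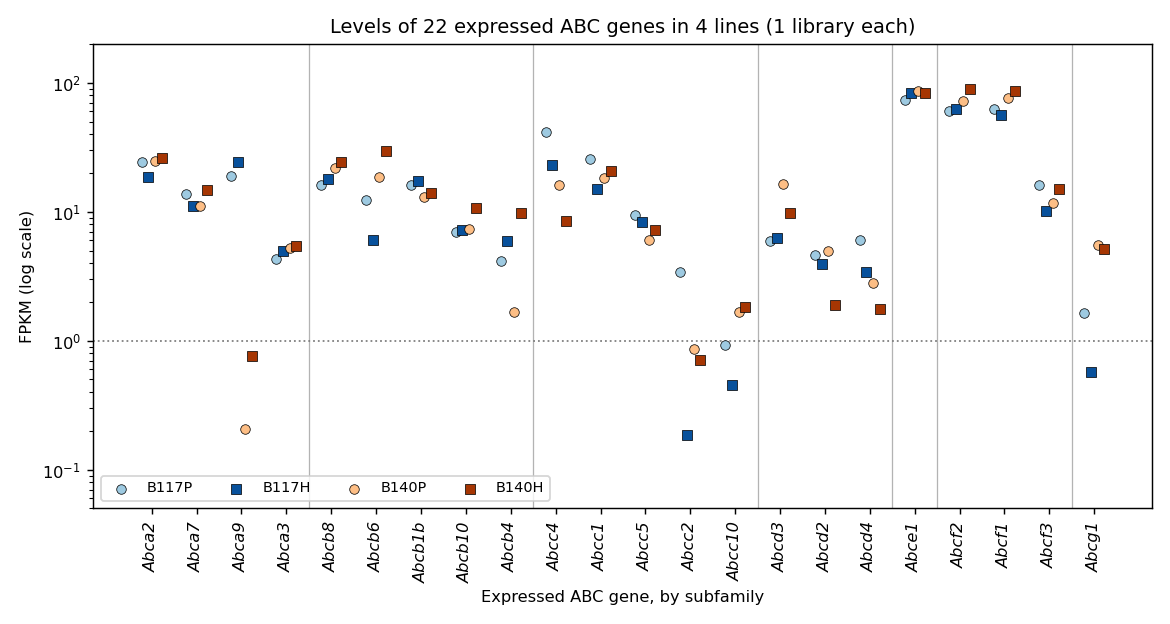
Levels of 22 of the 24 expressed ABC members in the 4 lines, as FPKM on a log axis, with 1 point per library, members grouped by subfamily and a dotted line at 1 FPKM. Abce1, Abcf1 and Abcf2 sit at the top in all 4 lines, Abca9 is near 20 FPKM in the B117 lines and below 1 in the B140 lines, and the lowest point is Abcc2 in B117H.

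Across the 4 comparisons of lines, few members changed with resistance and more differed between lineages. B117H differed from B117P in 1 of 24 members, Abcc2, which was lower, beside 4.62% of all expressed genes changed either way and 3.21% lower. B140H differed from B140P in 2, beside 3.94% either way: Abcb4 was higher, beside 2.31%, and Abcd2 lower, beside 1.63%. The parental lines differed from each other in 5 members, beside 16.6% of genes either way. Abcd3 and Abcg1 were higher in B140P, beside 5.83%, and Abca9, Abcc2 and Abcc4 lower, beside 10.8%. The resistant lines also differed in 5 members, beside 18.9% either way. The 3 that were higher in B140H, beside 9.69%, included Abcb6 and Abcg1. Abca9 and Abcc4 were lower, beside 9.19%. Abcc2 reached the minimum mean of 1 FPKM only through B117P, and Abca9 only through the B117 lines. Each was then called lower against those same lines, so these calls are not independent of the filter. With no filter on low values, Abcc2 was still the only member past the rule in B117H against B117P. By a 4-fold rule the counts in these 4 comparisons were 0, 1, 1 and 2 members, beside 1.06, 0.944, 6.06 and 6.46% of genes. With 24 members, 1 gene is about 4% of the family, so these shares are near those of all genes. The 4 comparisons share libraries and are not independent of each other. The median log2 ratio of the members was -0.16 in B117H against B117P and 0.12 in B140H against B140P, beside -0.03 and 0.11 for all expressed genes.

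No member changed by 2-fold in the same direction in both lineages, beside 0.228% of genes. By sign alone, 5 members (20.8%) were lower in both resistant lines than in the own parent, beside 16.3% of all expressed genes, and 7 (29.2%) were higher in both, beside 26.5%. Signs were opposite in 12, beside 55.5%. Of the 12, 9 were lower in B117H and higher in B140H, beside 36.4% of genes. Small ratios decide many of these signs: within lineages, 8 of the 19 members recomputed, Abcg2 included, which was not expressed, took the other sign under at least 1 other scaling or with the neighbour median subtracted, Abcb1b in B140H among them. Levels in resistant and sensitive lines did not overlap for 3 of 24 members, beside 15.7% of genes. Abcc2 and Abcd2 were lower in both resistant lines than in either parent, beside 5.39%, and Abcb4 was higher, beside 10.3%. Levels in the lineages did not overlap for 18 of 24, beside 61.9%. Both B140 lines were above both B117 lines for 13 members, beside 35.6%, and below them for 5, beside 26.4%.

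**Figure D2:**
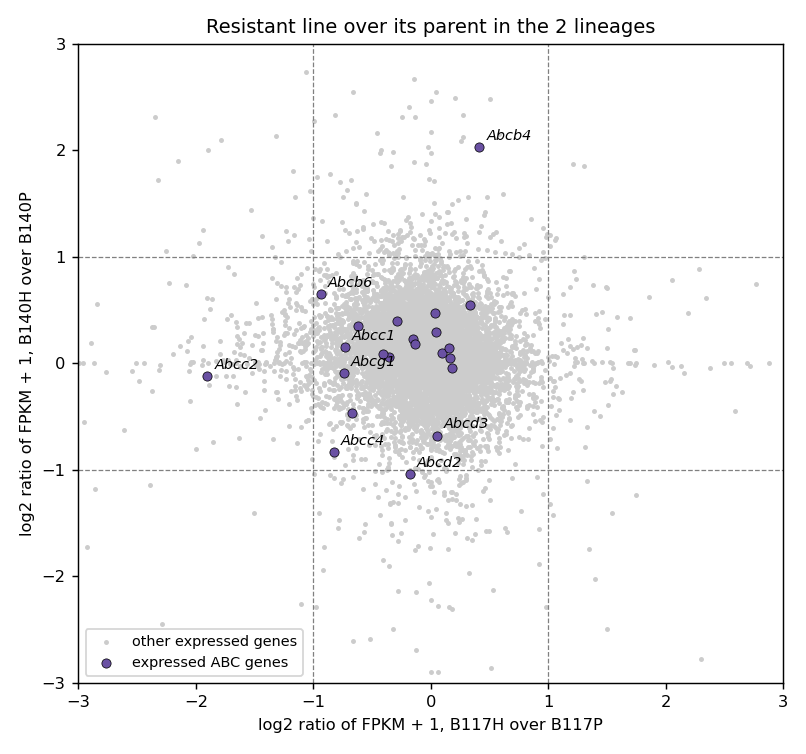
Log2 ratio of FPKM + 1 of B140H over B140P against that of B117H over B117P, with 22 of the 24 expressed ABC members in purple, other expressed genes in grey and dashed lines at 2-fold; 82 genes lie outside the axes. Abcc2 lies alone to the left, Abcb4 at the top and Abcd2 at the bottom, and no member lies in a corner past 2-fold on both axes.

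In limma (log2(FPKM + 1), lineage as a block), no member was called for resistance, with 0 of 10066 genes called at a Benjamini-Hochberg adjusted p of 0.05. At an unadjusted p under 0.05 the fit listed 2 members, Abcc4 and Abcb4, and 218 genes in all (2.17%). For Abcc4 the estimate was -0.83 (SE 0.23, limma adjusted p = 0.9995), lower in 2 of 2 resistant lines than in the own parent. For Abcb4 it was 1.22 (SE 0.41, limma adjusted p = 0.9995), higher in 2 of 2. The fit rests on 4 libraries and 1 residual degree of freedom.

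The efflux pumps were represented mainly by Abcc members. Of the 9 genes on the drug efflux list, 6 were expressed. Abcc4 (MRP4), a pump for cyclic nucleotides and nucleotide analogues, stood at 41.4, 22.9, 16.0 and 8.55 FPKM. It was highest in B117P and lowest in B140H, and each resistant line lay below its own parent. B117H kept 55.3% of the parental level (52.7 to 58.0%) and B140H 53.4% (49.6 to 57.5%), a log2 ratio of -0.83 in both, under the 2-fold rule. The B140 lines were lower than the B117 lines, with log2 ratios of -1.32 between parents and -1.32 between resistant lines. The gene lies at chr14:118881914-119105441 (mm9), and its 20 nearest expressed neighbours had median log2 ratios of -0.25 in B117H and -0.48 in B140H against the parents. With those medians subtracted, the ratios of Abcc4 were -0.58 and -0.35. The part of the surrounding genes in the level of Abcc4 was not tested.

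Abcc2 (MRP2), a pump for organic anion conjugates that is best known from the bile canaliculus, stood at 3.44, 0.185, 0.862 and 0.714 FPKM. It was high only in B117P, which alone brought its mean over the minimum, and B117H was the lowest line. B117H kept 5.40% of the parental FPKM (3.55 to 7.76%), on an estimated 29 fragments against 611, and the log2 ratio was -1.90. B140H and B140P differed by a log2 ratio of -0.12, which is within the 2-fold rule. Between the parents the log2 ratio of Abcc2 was -1.25, and -0.93 with quantile normalization, short of the rule.

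The genes around Abcc2 were lower in B117H too. Abcc2 lies at chr19:43856798-43912708 (mm9), and 12 of its 20 nearest expressed neighbours fell in B117H, with a median of -1.38. In a run chosen after its values were seen, from Cox15 to Fbxw4 at chr19:43764179-45734683 (mm9, 1.97 Mb), 20 of 21 expressed genes, Abcc2 included, fell in B117H, the exception being Cpn1. The other 20 genes had a median log2 ratio of -1.53, and 19 of the 21 genes were highest in B117P. In B140H against B140P the median of those 20 genes was 0.24. Between the parents it was -1.58, with B140P below B117P, and between the resistant lines 0.24. Of the 20 nearest expressed neighbours, 12 were also lower past the rule in B140P than in B117P, beside 10.8% of all expressed genes. Their median there was -1.40, beside -1.25 for Abcc2. Scd2, a stearoyl-CoA desaturase gene in the run, fell from 720 to 187 FPKM in the B117 lineage, and Ndufb8, a subunit of respiratory complex I, from 804 to 241. With the neighbour median subtracted, the log2 ratio of Abcc2 was -0.53 and no longer past the rule. DNA copy number was not measured here, and the part of the region in the level of Abcc2 was not tested.

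**Figure D3:**
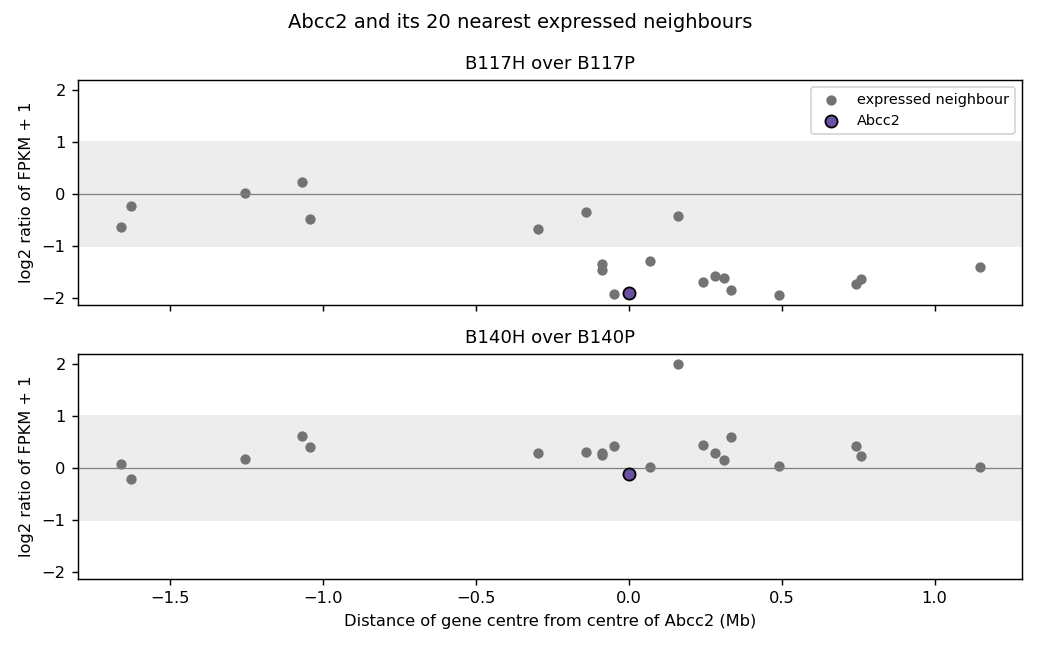
Log2 ratios of FPKM + 1 for Abcc2 (purple) and its 20 nearest expressed neighbours (grey) on chromosome 19, by distance of gene centres in Mb, for B117H over B117P (top) and B140H over B140P (bottom), with the range within 2-fold shaded. In the top panel 12 neighbours lie below -1, as Abcc2 does at -1.90, and in the bottom panel 1 neighbour lies past 2-fold, above it.

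Abcb1b, which with Abcb1a encodes mouse P-glycoprotein, stood at 16.2, 17.4, 13.1 and 14.1 FPKM. The 4 lines were close to each other, and the B140 lines lay below the B117 lines. B117H had 107% of the parental level (99.5 to 115%) and B140H 108% (99.6 to 116.7%), intervals that include equality for counting error. Abcb1a stood at 0.0179 and 0.0905 FPKM in B117P and B117H, an estimated 2 and 9 fragments, and was listed at 0 in both B140 lines. The paralogues share 18.0% of the 50-base stretches of the Abcb1b transcript and 15.5% of those of Abcb1a, so reads of either gene could be assigned to the other. Abcb1b had an estimated 1548 and 1469 fragments in B117P and B117H. Such reads could be a small part of the level of Abcb1b but a large part of that of Abcb1a, which was not tested.

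The remaining pumps showed no change past the rule within a lineage. Abcc1 (MRP1), which exports glutathione conjugates, stood at 25.5, 15, 18.4 and 20.5 FPKM, highest in B117P and lowest in B117H. Abcc5 (MRP5), a nucleotide analogue pump, stood at 9.43, 8.40, 6.01 and 7.22 FPKM, with both B140 lines below both B117 lines. Abcc10 (MRP7), which carries lipophilic drugs, was low at 0.933, 0.454, 1.68 and 1.84 FPKM. Its log2 ratio between the resistant lines was 0.97, just inside the rule, and 1.40 with quantile normalization.

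Abcc1 and Abcc5 lie on chromosome 16, and the median log2 ratios of their neighbours in B117H were -0.45 and -0.58, beside their own -0.73 and -0.15. Abcg2, the breast cancer resistance protein, was at 0.0368, 0.0206, 0.0214 and 0.0167 FPKM, and Abcc3 was at most 0.0310 FPKM in any line. Both were near the level that 3 fragments give, and a difference between lines was not detectable at this depth. The Abcc members summed to 80.8, 46.9, 43.0 and 38.9 FPKM, so B117P had the highest Abcc total. All 5 expressed Abcc members were below the parental value in B117H, where 1 passed the rule, and 2 of 5 were below it in B140H, where none did. Of all expressed genes, 53.4% were below the parent in B117H and 35.6% in B140H.

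**Figure D4:**
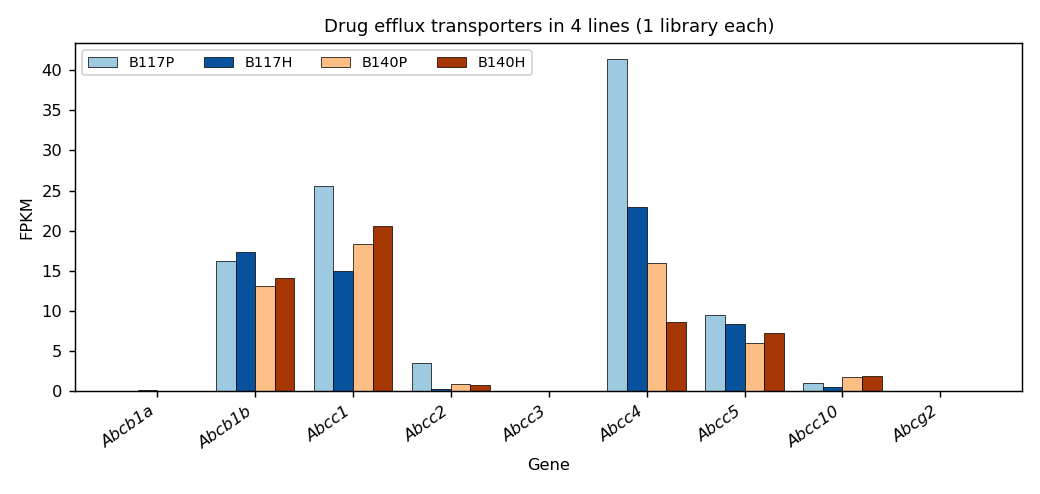
FPKM of the drug efflux list in the 4 lines, with 1 bar per library and a linear axis from 0. Abcc4 steps down from B117P to B140H, Abcc2 stands out in B117P at 3.44 FPKM, Abcb1b is near 15 FPKM in each line, and Abcb1a, Abcc3 and Abcg2 stay below 0.1 FPKM.

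Among the expressed lipid exporters, Abcb4 was the one that passed the rule within a lineage. Abcb4 (MDR2 in the mouse, the phosphatidylcholine floppase of the bile canaliculus) stood at 4.17, 5.89, 1.66 and 9.85 FPKM. B140P was the lowest line and B140H the highest, and both resistant lines lay above both parents. B140H had 5.93 times the FPKM of B140P (4.95 to 7.19), on an estimated 985 against 130 fragments, and the log2 ratio was 2.03. B117H had 1.41 times the FPKM of B117P (1.23 to 1.62), a log2 ratio of 0.41 that is within the rule.

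Abcb4 is the last gene of a cluster of 3 at chr5:8660092-8959226 (mm9), and the genes of the cluster did not move together. Abcb1b, 27.4 kb upstream, had a log2 ratio of 0.10 in B140H against B140P, beside 2.03 for Abcb4, and none of the 20 nearest expressed neighbours of Abcb4 passed the rule in that comparison, with a median of 0.10. Abcb4 shares 3.42% of its 50-base stretches with other genes.

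Abca9 differed most between the lineages. Its product belongs to a group of A subfamily proteins whose lipid substrates are poorly defined, and it stood at 19.1, 24.3, 0.205 and 0.757 FPKM. It was high in both B117 lines and low in both B140 lines. B140P had 1.08% of the FPKM of B117P (0.690 to 1.58%), and B140H had 3.11% of that of B117H. Abca9 reached the minimum mean of 1 FPKM only through the B117 lines. A lineage test on it is therefore not independent of that filter, and without the filter limma called no member between lineages. With it, the lineage difference of Abca9 in limma was -3.95 (SE 0.25, adjusted p = 0.000788), with B140 below B117 in 2 of 2 comparisons. Within lineages the log2 ratio was 0.34 in B117 and 0.54 in B140, both within the rule, and the FPKM of B140H was 3.69 times that of B140P (2.39 to 5.95) at these low levels, a log2 ratio of 1.49 with a pseudocount of 0.1.

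Abca9 lies in the middle of 5 A subfamily genes on chromosome 11 (Abca8b, Abca8a, Abca9, Abca6 and Abca5, chr11:109794720-110199030 in mm9). It was the only one of the 5 that was expressed. Abca6, 8.67 kb away, stood at 0.387 and 0.172 FPKM in the B117 lines and was listed at 0 in the B140 lines. Abca5 was at most 0.402 FPKM, in B117H. Only 0.205% of the 50-base stretches of Abca9 are found in another gene.

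**Figure D5:**
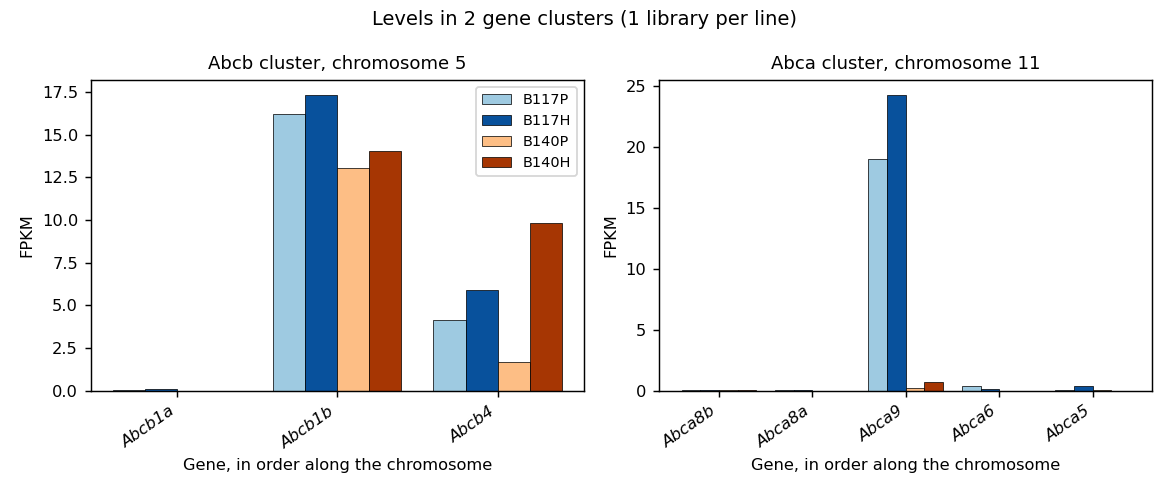
FPKM, on linear axes from 0 with 1 bar per library, of the genes of 2 ABC clusters, Abcb1a to Abcb4 on chromosome 5 and Abca8b to Abca5 on chromosome 11, in the 4 lines, in the order they lie along the chromosome. Abcb1b is nearly level across lines while Abcb4 beside it ranges from 1.66 to 9.85 FPKM, and Abca9 is the 1 gene of its cluster above 1 FPKM.

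Abcg1, which passes cholesterol to high-density lipoprotein, was higher in the B140 lines. It stood at 1.63, 0.574, 5.51 and 5.11 FPKM, with B117H lowest. The lineage difference in limma was 1.63 (SE 0.30, adjusted p = 0.025), with B140 above B117 in 2 of 2 comparisons. B117H kept 35.3% of the FPKM of B117P (26.4 to 46.9%), a log2 ratio of -0.74, or -1.36 with a pseudocount of 0.1. Abca1, the partner that loads lipid-poor apolipoprotein A-I, was not expressed by the rule. It stood at 1.88, 0.602, 0.368 and 0.0308 FPKM, highest in B117P and lowest in B140H. B117H kept 32.1% (25.9 to 39.2%) and B140H 8.37% (3.58 to 17.9%) of the parental level.

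Both are textbook targets of the liver X receptors, and other LXR-induced genes were counted from a list without ABC genes. Of 11 such genes 5 were expressed, and in B117H against B117P 2 fell, the E3 ligase gene Mylip from 16.2 to 4.65 FPKM and the small GTPase gene Arl4c from 6.90 to 2.64. Mylip was high only in B117P, at 4.68 and 5.49 FPKM in B140P and B140H, with a log2 ratio of -1.60 between the parents. Arl4c stood at 6.41 and 5.30 FPKM in B140P and B140H. The neighbours of these 2 genes were not examined. None of the 5 changed in B140H against B140P. Their median log2 ratios were -0.52 in lineage B117 and 0.19 in lineage B140, beside -0.03 and 0.11 for all expressed genes, of which 3.21% fell in B117H. Of 20 nuclear receptors and other regulators of ABC genes, 11 were expressed and none changed within a lineage, with medians of -0.08 and -0.04. The part of the liver X receptors in the levels of Abcg1 and Abca1 was not tested.

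The other expressed lipid exporters stayed within the rule. Abca2, an endolysosomal lipid transporter with the highest mean of its subfamily, stood at 24.1, 18.6, 24.8 and 25.9 FPKM. Abca7, a phospholipid exporter, and Abca3, known from surfactant storage in the lung, also did so in every comparison. Abcg4, which was not expressed by the rule, stood at 0.485, 0.530, 0.173 and 0.135 FPKM. It was lower in the B140 lines, B140P with 35.7% of the FPKM of B117P (17.2 to 66.04%) and B140H with 25.4% of that of B117H (12.2 to 47.2%).

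Among the mitochondrial members Abcb6 varied most. Abcb6, a porphyrin transporter, stood at 12.4, 6.01, 18.6 and 29.7 FPKM. B117H was lowest and B140H highest, so the lineages moved in opposite directions. B117H had 48.4% of the FPKM of its parent (42.6 to 54.9%) and B140H 160% (148 to 172%), with log2 ratios of -0.94 and 0.65, neither past the rule; with a pseudocount of 0.1 the first was -1.04. The resistant lines differed by a log2 ratio of 2.13. GENCODE M21 (GRCm38) lists a second gene, Gm29253, that holds 90.3% of the 50-base stretches of the Abcb6 transcript. The deposited values were made on mm9, and no gene listed with them overlaps Abcb6. Whether reads of Abcb6 were divided with another gene was not tested. Abcb8 and Abcb10, both of the inner membrane, differed by less than 2-fold in each comparison. Of 20 haem and iron-sulphur enzymes, 19 were expressed. Lyrm4, an iron-sulphur assembly factor, fell in B117H from 8.88 to 3.86 FPKM, beside 3.21% of all expressed genes that fell there. Fech, the last enzyme of haem synthesis, rose in B140H from 6.37 to 16.6 FPKM, beside 2.31% of all expressed genes.

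The Abcd genes did not move as a group. Abcd2, a peroxisomal carrier of very long-chain acyl-CoA, stood at 4.59, 3.95, 4.93 and 1.89 FPKM. B140H was the lowest line, and it kept 38.2% of the FPKM of B140P (32.8 to 44.5%), a log2 ratio of -1.04. With quantile normalization that ratio was -0.89, short of the rule.

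Abcd3, the 70 kDa peroxisomal membrane protein PMP70, stood at 5.95, 6.2, 16.4 and 9.86 FPKM and differed past the rule between the parents, with a log2 ratio of 1.32. Its 20 nearest expressed neighbours had a median of 0.61 in that comparison, and their part in the level of Abcd3 was not tested. Abcd4, the lysosomal cobalamin exporter, stood at 6.02, 3.41, 2.82 and 1.76 FPKM and lay below the parent in both resistant lines, with log2 ratios of -0.67 and -0.47 inside the rule. The medians of its neighbours were 0.33 in B117H and 0.05 in B140H against the parents. Of 15 peroxisomal partners 14 were expressed, and of 5 cobalamin partners 5, and none of either list changed within a lineage.

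The counts of the other partner lists were small as well, beside 4.62% of all expressed genes changed in B117H and 3.94% in B140H. Of 11 translation partners of Abce1 and the Abcf proteins, all expressed, the ribosome rescue factor Pelo rose in B140H from 3.96 to 10.2 FPKM and none changed in B117H. Of 16 glutathione conjugation genes, 11 were expressed. In B117H the transferase gene Gstm1 fell from 39.9 to 12 FPKM and Gsta4 rose from 2.15 to 6.38, and none changed in B140H. Tap1 and Tap2, the ABC proteins that feed peptides to MHC class I and carry other symbols, were abundant. Tap1 stood at 44.8, 68.0, 53.7 and 77.8 FPKM and Tap2 at 93.9, 166, 106 and 147, higher in both resistant lines than in the parents but within the rule. Of all expressed genes, 10.3% were higher in both resistant lines than in both parents. None of 5 peptide loading partners changed within a lineage. Cftr and the potassium channel subunits Kcnj8 and Kcnj11, partners of Abcc8 and Abcc9, were listed at 0.

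Between lineages, limma called 3 of 24 members, Abca9, Abcc4 and Abcg1, beside 11% of all expressed genes. For Abcc4 the difference was -1.32 (SE 0.23, adjusted p = 0.0204), with B140 below B117 in 2 of 2 comparisons. At an unadjusted p under 0.05 it listed 6 members and 2526 genes (25.1%). Both lines of a lineage share an origin and are not independent samples of it. The residual error comes from how far the resistance ratios of the 2 lineages disagree. These p-values therefore do not measure the spread between libraries of a line or between lineages. The lineages may also have been normalised separately, which cannot be told apart here from a lineage difference. Without the filter on low values limma called none of the 3. Without the block it called Abca9 and Abcg1, and Abca9 alone when B140P or B140H was also left out.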

How the data were processed

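RNA was sequenced from 4 cell lines, 1 library each. The authors deposited FPKM values per gene, without counts, made with TopHat2 2.0.4 and Cuffdiff on the mm9 build, per the submitters' processing notes. FPKM were taken as deposited. Values of the lineages may have been normalised separately, since the listed coordinates of 6 genes, none of them a member, differ between lineages. Listed starts were counted from 0, and 1 was added.

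Log2 ratios used FPKM + 1. Members, lists and the rule for named genes were chosen with earlier results of these data known. The rule took the drug efflux list, members past 2-fold within or 4-fold between lineages, and the highest member of each subfamily. Of partner lists, genes past 2-fold within a lineage were named. Values of 2 members that enter the counts are not reported here. Members named besides share a locus, complex or substrate with these.

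limma 3.58.1 in R 4.3.3 fitted lineage and sensitivity with trend = TRUE and p-values adjusted by Benjamini and Hochberg; the pairing of each resistant line with its parent comes from the line names in the labels. A run on simulated data without a lineage difference checked the 2-fold rule only. It does not show how well limma performs on these data.

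Depth came from the step size among low FPKM times length, over 761 genes annotated with 1 transcript of 3 kb or longer. Between 71.1% and 81.5% of 65 to 89 low values per library lay within 0.15 of a whole fragment, but the unit was set on the same values, so intervals are approximate. Transcript lengths and shared 50-base stretches came from GENCODE M21 (GRCm38), neighbours from the mm9 positions listed, and promoter windows from RefSeq (GRCm38.p6). Intervals are exact Clopper-Pearson. Alternatives were other pseudocounts, minimum levels, fold rules, centring, quantile normalization and limma settings; subtraction of the neighbour median was added after the data were seen. Other steps ran in Python 3.11.15 with scipy 1.17.1, pandas 2.3.3, matplotlib 3.10.9 and numpy 2.4.6.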

Additional observations from a re-analysis of the deposited data

Results flagged for a closer look

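Abcb6 moved in opposite directions in the lineages. Its log2 ratio of resistant line over parent was higher in lineage B140 than in lineage B117 by 1.59. The resistant line lay below its parent in B117 and above it in B140. With 1 library per line the difference was not tested. Of 24 expressed members, 9 were lower in B117H and higher in B140H, beside 36.4% of all expressed genes.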

How the results depend on the processing

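The counts of members past the fold rule are small and moved with the settings. In B117H against B117P, 1 member became 3 with a pseudocount of 0.1, 8 with a 1.5-fold rule, and 0 with a minimum mean of 5 FPKM or a 4-fold rule. In B140H against B140P, 2 became 5 with a 1.5-fold rule and 1 with a minimum mean of 5 FPKM, a 4-fold rule or quantile normalization. Between parents, 5 became 3 with a minimum mean of 5 FPKM and 1 with a 4-fold rule. Between resistant lines, 5 became 8 with a pseudocount of 0.1, 11 with a 1.5-fold rule and 2 with a 4-fold rule. Fewer genes pass a stricter minimum or fold by construction; for the other settings the cause was not tested. With the neighbour median subtracted, the count stayed at 1 in B117H, but the member was Abcd4 in place of Abcc2, and Abcb4 and Abcd2 remained in B140H. Minimum means of 0.5, 2 and 5 FPKM left 25, 22 and 18 expressed members.

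In limma, the lineage comparison called 3 members with the replicate block of lineage and sensitivity, 2 with no replicate block (Abca9 and Abcg1), 0 with no filter on low values, and 1 to 2 when a library was left out without the block. The resistance comparison called 0 members under all 10 alternatives. Of 248 recomputed log2 ratios of 19 named members, 178 were counted as moving by less than 0.5 of the width of their counting interval and 70 by more. The ratios of Abcb1a that involve a B140 line have no finite interval and were counted among the 178 whatever their value. In B140H against B117H that ratio went from -0.13 to -0.93 with a pseudocount of 0.1. None of the ratios past the rule changed sign. Of the 76 ratios, 10 took the other sign under at least 1 of these settings, all of them at most 0.23 from 0 as reported, among them Abca2, Abcb1b, Abcb8, Abcc10, Abcc2 and Abcc5 in B140H against B140P. Depth limits members under about 0.03 FPKM, Abcg2 and Abcc3 among them.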
